A study of Homo sapiens with 12 samples.

Results

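CLK1, CLK2, CLK3 and CLK4 are the 4 members of the CDC-like kinase family, and RSRP1 encodes an arginine- and serine-rich nuclear protein. These 5 genes were taken by symbol from the 51141 symbols of a count table, and all 5 were found there and passed the filter on low counts that left 14447 genes. CLK1 and RSRP1 were selected on their higher counts at low oxygen under TEPA, so the difference between TEPA+hypoxia and TEPA is described for them with no test. CLK2, CLK3 and CLK4 were added as the rest of the kinase family.

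CLK kinases phosphorylate SR proteins, the splicing factors with domains rich in arginine and serine. This releases SR proteins from nuclear speckles, the compartments where they are stored, and changes which exons are joined. CLK1 and CLK4 transcripts are themselves known to be kept partly unspliced in the nucleus, with introns that can be removed when CLK activity falls or cells are stressed. A gene-level count does not separate the spliced from the unspliced form. The function of RSRP1 is little described.

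Messenger RNA was sequenced from EA.hy926 cells, an established human line, a hybrid of endothelial cells of the umbilical vein and A549 lung carcinoma cells. The TEPA+hypoxia group received 50 µM TEPA, a polyamine that chelates copper, for 16 h and then spent 8 h in 1% oxygen, and the TEPA group received the same agent followed by 8 h at normal oxygen. The hypoxia group spent 8 h in 1% oxygen without TEPA, and the control group had neither treatment. Each group had 3 libraries, all from the 1 cell line, and the labels do not say whether they are separate cultures, so p-values measure only the spread between these libraries, which may be technical.

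Total counts ran from 13406858 to 24778944 per library. Hypoxia 2 and hypoxia 3 stood apart: their TMM scaling factors were 0.772 and 0.838, against 1.03 to 1.08 in the other 10 libraries, and their correlations with hypoxia 1 lay between 0.939 and 0.955, against 0.988 to 0.994 between same-group libraries elsewhere. All 9 endothelial markers were detected. Among them KDR, at 2.87 to 12.1 CPM, and VWF, at 6.41 to 10.4 CPM, were low, where CPM is the count relative to the TMM-scaled library size. In hypoxia 2 and 3 the endothelial markers went both ways: 5 of 9 lay below all 10 other libraries (PECAM1, CDH5, KDR, TEK and ERG), 2 above them (ENG and ICAM2) and 2 overlapped. TEK had 2.28 and 3.65 CPM there, against 32.7 to 82 CPM in the others, and ENG had 3390 and 2780 CPM, against 827 to 1240 CPM. The summed endothelial level, 6310 and 5530 CPM against 3280 to 3790 CPM, was thus carried by ENG and ICAM2. The summed epithelial markers, 3 of 5 of which were tested, were 6570 and 5690 CPM in these libraries, against 1960 to 2800 CPM elsewhere. That sum was carried by 2 keratins. KRT8 had 2710 and 2340 CPM, against 930 to 1240 CPM, and KRT18 had 3860 and 3340 CPM, against 1030 to 1550 CPM. EPCAM overlapped, at 0.367 and 0.178 CPM against 0.324 to 0.99 CPM, and CDH1 had 0 counts throughout. The leukocyte sum was 3.75 to 6.2 CPM and the fibroblast sum 0.949 to 1.48 CPM over all 12 libraries, with PTPRC and DCN at 0 counts. The part of these 2 libraries was measured by fitting without them, for those fold changes and lists below where such values are given. Levels per kb, family shares and count ratios are shown with these libraries included. The part of the KRT8 and KRT18 levels was not tested. In bulk RNA, fewer cells of a type and less RNA per cell cannot be told apart.

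CLK1 lies on chromosome 2 (200853009 to 200864744, minus strand) and RSRP1 on chromosome 1 (25242237 to 25338213, minus strand) of GRCh38, in GENCODE 29. CLK2 lies on chromosome 1 (155262868 to 155278491, minus strand), CLK3 on chromosome 15 (74598500 to 74645414, plus strand) and CLK4 on chromosome 5 (178602664 to 178630615, minus strand). Hypoxia acts on many genes through HIF, a transcription factor that binds a short core sequence. The stretches upstream of the outermost RefSeq start are shown for CLK1 and RSRP1, the pair that was higher at low oxygen, from RefSeq on GRCh38.p14. They read 5′ to 3′ on the minus strand, at chr2:200864745-200864908 and chr1:25338255-25338504. Capitals mark the HIF core, ACGTG or GCGTG on either strand. The CLK1 stretch was ended where an annotated GENCODE transcript begins.
CLK1: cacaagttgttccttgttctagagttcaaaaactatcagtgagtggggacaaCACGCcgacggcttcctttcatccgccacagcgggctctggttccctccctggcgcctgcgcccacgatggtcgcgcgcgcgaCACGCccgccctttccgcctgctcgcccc
RSRP1: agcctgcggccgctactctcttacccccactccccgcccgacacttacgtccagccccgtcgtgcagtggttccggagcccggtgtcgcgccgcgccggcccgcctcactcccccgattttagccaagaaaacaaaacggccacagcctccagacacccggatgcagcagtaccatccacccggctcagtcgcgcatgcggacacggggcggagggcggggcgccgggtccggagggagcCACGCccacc

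Over the 250 bases upstream of its outermost RefSeq start, CLK1 held 2 HIF cores, at 198 and 115 bases before the start. Before its inner start CLK1 held 2, at 212 and 66 bases. RSRP1 held 1, at 10 bases. CLK3 held 1 before its upstream start and 2 before its downstream start. CLK2 held 4 and CLK4 held 3; in each of these the palindrome CACGTG counts as 2 overlapping matches, so that the separate positions number 3 in CLK2 and 2 in CLK4. Among all 35116 upstream windows of this length, 43.2% held at least 1 core, 19.4% at least 2 and 7.76% at least 3. The paired heat shock motif GAANNTTC, searched on both strands and present in 5.78% of all windows, was in none of the windows of these genes. The metal response core, TGCGCNC or TGCACNC, was in 24.8% of all windows. CLK1 held it at 141 bases before its outermost start and 238 before its inner start. CLK4 held it at 76 bases, and CLK2, CLK3 and RSRP1 did not hold it. The cyclic AMP motif TGACG was in 21.2% of all windows. CLK1 held it at 49 and 146 bases before the same starts, and CLK4 at 114 bases. CLK3 held it only before its downstream start, at 44 bases, and CLK2 and RSRP1 did not. These matches are descriptions of the letters and say nothing of binding.

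Of the kinases, CLK1 differed most between the groups. It was chosen for its rise at low oxygen under TEPA, so this order was favoured in advance and nothing is drawn from it. CLK1 had 76.2, 80.5 and 86.2 CPM in TEPA+hypoxia, 58.8, 42.9 and 45.9 CPM in hypoxia, 28.5, 30.7 and 36.1 CPM in TEPA, and 40.9, 38.4 and 29.7 CPM in control. Every TEPA+hypoxia library lay above every other library, every hypoxia library lay above every TEPA and control library, and TEPA and control overlapped. The separation of hypoxia from control and TEPA rests on the TMM factors. Scaled by library totals alone, CLK1 was at 60.5, 33.1 and 38.4 CPM in hypoxia. This overlaps the 42.2, 39.8 and 30.7 CPM of control and the 29.3, 31.6 and 37.6 CPM of TEPA. RSRP1 had 56.8, 59.5 and 51.8 CPM in TEPA+hypoxia, 50.7, 40.8 and 42.3 CPM in hypoxia, 24.7, 23.8 and 24.6 CPM in TEPA, and 26.4, 23.3 and 25.5 CPM in control. For RSRP1, too, the low-oxygen libraries did not overlap those at normal oxygen, also when scaled by totals alone, and TEPA and control libraries were intermingled. How many of all genes separate in these ways was not counted.

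CLK2 and CLK4, which were not chosen by their counts, varied less between the groups. CLK2, a family member known to act in splicing and in hepatic glucose metabolism in mice, had 42.9, 44.2 and 38.3 CPM in TEPA+hypoxia, 36.4, 35.6 and 36.2 CPM in hypoxia, 31.2, 37.7 and 35.5 CPM in TEPA, and 31.1, 30.9 and 30.5 CPM in control. CLK4, the closest relative of CLK1, had 11.3, 9.8 and 10.5 CPM in TEPA+hypoxia, 9.32, 6.61 and 9.71 CPM in hypoxia, 7.41, 6.82 and 7.6 CPM in TEPA, and 7.55, 7.66 and 8.4 CPM in control. Both were highest in TEPA+hypoxia, by a narrow margin. CLK2 had 38.3 CPM in TEPA+hypoxia 3 beside 37.7 CPM in TEPA 2. CLK4 had 9.8 CPM in TEPA+hypoxia 2 beside 9.71 CPM in hypoxia 3. Under TMM scaling the control libraries of CLK2 were its lowest. Scaled by library totals, CLK2 was at 27.4 and 30.3 CPM in hypoxia 2 and 3, below the 31.5 to 32.1 CPM of control. CLK3 was counted only 6 to 27 times per library, at 0.388 to 1.96 CPM, with both extremes inside the hypoxia group. The floor of 3 counts lay between 0.118 and 0.267 CPM, so CLK3 was detected in every library but too thinly for its differences to be read.

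**Figure D1:**
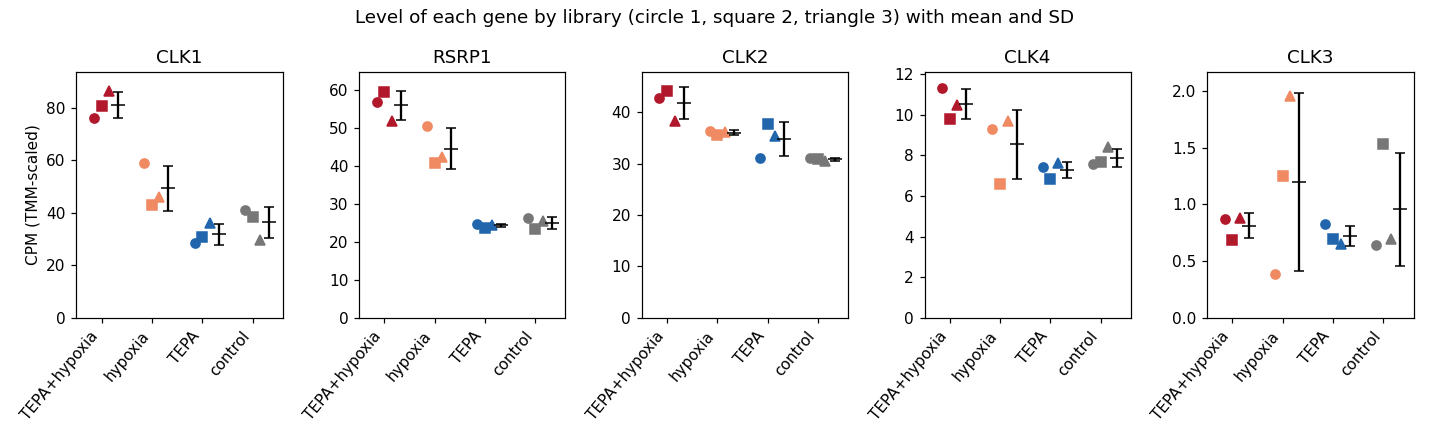
TMM-scaled CPM (vertical axis, linear, from 0; each panel has its own scale) of the 5 genes in the 4 groups; symbols are libraries 1 to 3, and bars are the mean and SD of 3 libraries. CLK1 and RSRP1 sit higher in both low-oxygen groups, CLK1 most in TEPA+hypoxia (76.2 to 86.2 CPM), while CLK3 stays at or below 1.96 CPM.

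Levels were compared between genes per kb of merged exon. In TEPA+hypoxia the order was CLK1 (15.7 ± 0.969), CLK2 (11.4 ± 0.832), RSRP1 (8.24 ± 0.573), CLK4 (1.33 ± 0.0946) and CLK3 (0.0398 ± 0.0055), in CPM per kb (SD, n = 3). In control it was CLK2 (8.4 ± 0.0822), CLK1 (7.03 ± 1.14), RSRP1 (3.68 ± 0.236), CLK4 (0.993 ± 0.0585) and CLK3 (0.0468 ± 0.0244). On this scale CLK1 and CLK2 exchanged places, and the other ranks were the same. As CPM with no length, CLK1 was above CLK2 in control too (36.3 and 30.8 CPM), so this order turns with the length used. In hypoxia CLK1 (9.52 ± 1.64) and CLK2 (9.82 ± 0.122) lay within their spread of each other, and in TEPA CLK2 (9.48 ± 0.904) lay above CLK1 (6.14 ± 0.756). The exons of a gene were merged over all its transcripts, 20443 bases for CLK3, so these levels depend on the annotation.

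The make-up of the kinase family within a library does not depend on how libraries are scaled. It was not adjusted for each gene's GC share and length, in which CLK1 (35.7% GC) and CLK2 (52.3% GC) differ. With that adjustment the log2 fold change in hypoxia against control went from 0.44 to 0.90 for CLK1. For CLK2 it went from 0.23 to 0.08. CLK1 formed 52.8%, 53.9% and 58.5% of the family's level per kb in TEPA+hypoxia, 50.6%, 43.9% and 44.3% in hypoxia, 36.8%, 34.7% and 39.6% in TEPA, and 45.6%, 44% and 37.9% in control. CLK2 formed 41.9%, 41.7% and 36.7% in TEPA+hypoxia, 44.1%, 51.3% and 49.2% in hypoxia, 56.7%, 60.1% and 54.8% in TEPA, and 48.8%, 49.9% and 54.9% in control. CLK1 was the larger share in all 3 TEPA+hypoxia libraries and in hypoxia 1, and CLK2 in the other 8 libraries. As counts with no length, CLK1 was the larger in 9 libraries and CLK2 in 3 (TEPA 1, TEPA 2 and control 3). CLK4 kept to 4.28% to 7% throughout.

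**Figure D2:**
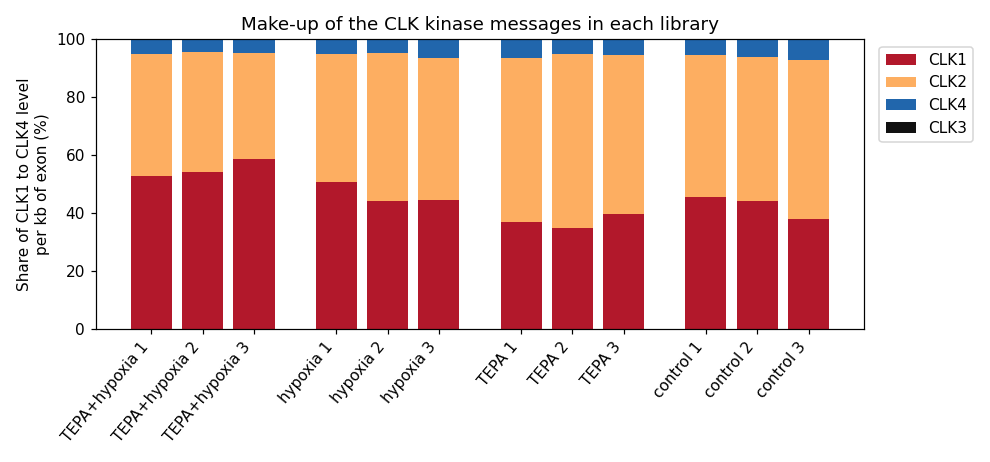
Share of each kinase in the summed CLK1 to CLK4 level per kb of exon (vertical axis, percent), 1 stacked bar per library. CLK1 is 52.8% to 58.5% of the family in TEPA+hypoxia and 34.7% to 39.6% in TEPA; CLK3 is under 0.5% and too thin to see.

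Set against CLK2 in the same library, CLK1 had a count ratio of 1.78, 1.82 and 2.25 in TEPA+hypoxia, 1.61, 1.21 and 1.27 in hypoxia, 0.913, 0.814 and 1.02 in TEPA, and 1.32, 1.24 and 0.973 in control. The hypoxia and control ratios overlapped, through hypoxia 2 and 3 and control 1 and 2. These count ratios, too, were not adjusted for GC share and length. RSRP1 over CLK2 was 1.32, 1.35 and 1.35 in TEPA+hypoxia, 1.39, 1.15 and 1.17 in hypoxia, 0.792, 0.632 and 0.694 in TEPA, and 0.849, 0.754 and 0.837 in control. Every low-oxygen ratio of RSRP1 lay above every ratio at normal oxygen, with and without TEPA. The part under TEPA is the contrast that chose RSRP1. Such a separation was not counted over all genes, so nothing is drawn from it.

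Low oxygen without TEPA is the comparison whose libraries did not choose the genes, so all 5 were tested in it. RSRP1 rose, averaging 44.6 ± 5.33 CPM in hypoxia and 25 ± 1.61 CPM in control (SD, n = 3 each), a log2 fold change of 0.83 ± 0.11 (SE), or 1.78-fold, at an adjusted p of 0.00601 by the edgeR quasi-likelihood test over all genes. CLK1 rose less, averaging 49.2 ± 8.46 CPM in hypoxia and 36.3 ± 5.9 CPM in control, a log2 fold change of 0.44 ± 0.16 at an adjusted p of 0.032 by the same edgeR test. CLK2 (0.23 ± 0.10, adjusted p = 0.0747), CLK3 (0.29 ± 0.49, adjusted p = 0.632) and CLK4 (0.12 ± 0.16, adjusted p = 0.533) did not pass. So 2 of the 5 genes were called, both higher, while 57.2% of all genes tested were called, 29.4% higher and 27.8% lower. A count of 2 of 5 is no more than that background.

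The call for RSRP1 and the call for CLK1 rested on different footing. Without hypoxia 2 and 3, where 0.519% of all genes were called, RSRP1 had a log2 fold change of 1.02 and an adjusted p of 0.00252 by edgeR, with hypoxia 1 at 50.7 CPM standing alone for its group and assumed to vary as the other groups do. CLK1 had 0.69 and an adjusted p of 0.0656 in that edgeR fit, with hypoxia 1 at 58.8 CPM. The RSRP1 call was lost in 1 of 24 alternatives, the fit of the 2 groups alone (0.83, adjusted p = 0.0586), in which no gene was called. The CLK1 call was lost in 10 of the 24, among them scaling by library totals alone (0.23, adjusted p = 0.366) and the fits without control 2, control 3, hypoxia 1 or hypoxia 3 (0.27 to 0.49). The 24 include fits without a TEPA or TEPA+hypoxia library, which could hardly move these values. There CLK1 stayed at 0.44 and RSRP1 at 0.83. When counts were adjusted for each gene's GC share and length, the CLK1 value was 0.90 (adjusted p = 0.00153) and CLK4 was called at 0.68 (adjusted p = 0.0112). CLK1 and CLK4 have GC-poor longest transcripts, at 35.7% and 36.2% GC, against 52.3% for CLK2 and 50.3% for RSRP1.

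**Figure D3:**
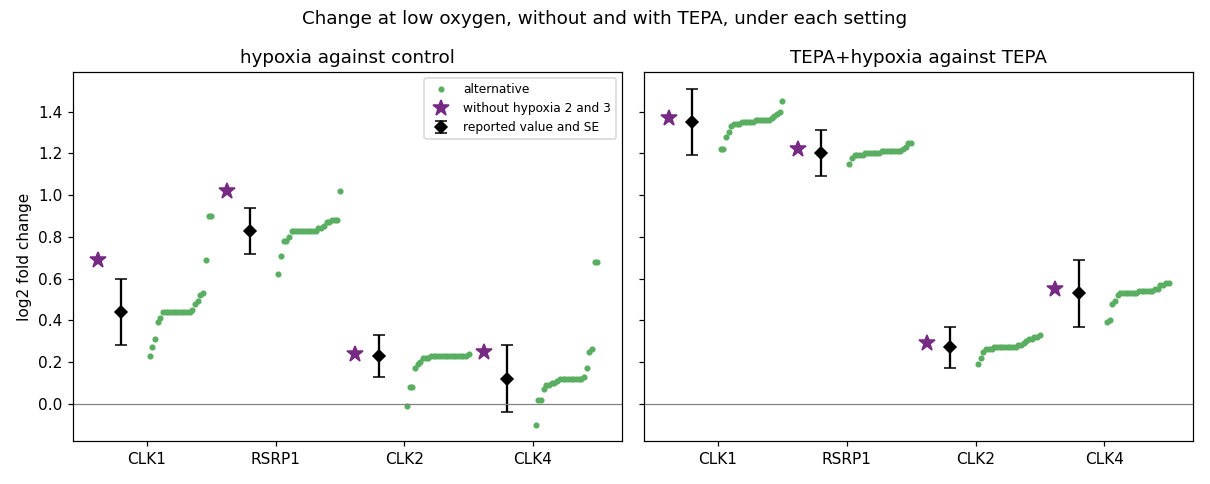
Log2 fold change (vertical axis) at low oxygen without TEPA (left) and with TEPA (right) for 4 genes; diamonds are the reported values with SE, stars the values without hypoxia 2 and 3, and small points the 24 alternatives. Without TEPA the CLK1 values spread from 0.23 to 0.90 and those of RSRP1 from 0.62 to 1.02; with TEPA they spread from 1.22 to 1.45 and from 1.15 to 1.25.

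Low oxygen under TEPA is the comparison that chose CLK1 and RSRP1. CLK1 averaged 81 ± 5.01 CPM in TEPA+hypoxia and 31.7 ± 3.91 CPM in TEPA (SD, n = 3 each), a 2.55-fold difference with a log2 fold change of 1.35 ± 0.16 (SE), number 61 from the top among 14447 genes. RSRP1 averaged 56 ± 3.9 CPM in TEPA+hypoxia and 24.4 ± 0.488 CPM in TEPA, a 2.3-fold difference with a log2 fold change of 1.20 ± 0.11, number 102 from the top. In this contrast 0.0969% of all genes were called, and 2.22% without hypoxia 2 and 3. The values for CLK1 and RSRP1 kept to 1.22 to 1.45 and 1.15 to 1.25 over the 24 alternatives. CLK4 had a log2 fold change of 0.53 ± 0.16 and CLK2 of 0.27 ± 0.10. Each had all 3 TEPA+hypoxia libraries above all 3 TEPA libraries, a separation that was not counted over all genes. CLK3 (0.15 ± 0.50) overlapped.

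TEPA at normal oxygen was compared with control. The CLK2 libraries lay higher in TEPA (31.2 to 37.7 CPM) than in control (30.5 to 31.1 CPM), and those of CLK3 and CLK4 overlapped. This separation of CLK2 was not counted over all genes. Scaled by library totals, CLK2 was at 32.1 CPM in both TEPA 1 and control 1. CLK1 averaged 31.7 CPM in TEPA and 36.3 CPM in control (log2 fold change -0.20 ± 0.16), and RSRP1 averaged 24.4 CPM in TEPA and 25 CPM in control (-0.04 ± 0.11), both overlapping and described with no test. CLK2 had a log2 fold change of 0.17 ± 0.10, CLK4 of -0.11 ± 0.16 and CLK3 of -0.37 ± 0.49, each at an adjusted p of 1 by edgeR. None of these 3 was called, where 0% of all genes were called: the edgeR test called 0 genes with a smallest adjusted p of 0.854, 289 genes had an unadjusted p under 0.05, DESeq2 called 6 and limma-voom 0.

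TEPA at low oxygen was compared with hypoxia alone. CLK1 averaged 81 CPM in TEPA+hypoxia and 49.2 CPM in hypoxia, a log2 fold change of 0.72 ± 0.16 given with no test. It was 0.47 without hypoxia 2 and 3 and 0.20 when adjusted for GC and length. RSRP1 averaged 56 CPM in TEPA+hypoxia and 44.6 CPM in hypoxia (0.33 ± 0.11), and the value without hypoxia 2 and 3 was 0.15. CLK2 (0.21 ± 0.10, adjusted p = 0.0861), CLK4 (0.30 ± 0.16, adjusted p = 0.109) and CLK3 (-0.50 ± 0.50, adjusted p = 0.395) did not pass the edgeR test. So 0 of the 3 genes tested were called, where 61.5% of all genes were, 30.9% higher and 30.6% lower. Without hypoxia 2 and 3, with hypoxia 1 alone for its group, the values were 0.21 for CLK2, 0.19 for CLK4 and 1.06 for CLK3. CLK2 was called at 0.50 (adjusted p = 0.0103) with library totals alone and at 0.40 (adjusted p = 0.00363) with the GC and length correction. CLK4 was called at 0.57 (adjusted p = 0.0287) with library totals alone and turned to -0.34 (adjusted p = 0.125) with that correction.

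The response of CLK1 to low oxygen was 1.35 with TEPA and 0.44 without it, a difference of 0.91 ± 0.22 on the log2 scale, given with no test because it holds the contrast that chose the gene. In size it was number 2611 from the top among 14447 genes. It was 0.68 without hypoxia 2 and 3, 1.17 with library totals alone and 0.32 when adjusted for GC and length. The same difference was 0.37 ± 0.16 for RSRP1, 0.42 ± 0.22 for CLK4, 0.04 ± 0.14 for CLK2 and -0.13 ± 0.71 for CLK3. Without hypoxia 2 and 3 it was 0.20 for RSRP1 and 0.31 for CLK4. When adjusted for GC and length it was 0.34 for RSRP1 and turned to -0.29 for CLK4.

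TEPA and low oxygen together were compared with neither. CLK1 averaged 81 CPM in TEPA+hypoxia and 36.3 CPM in control (log2 fold change 1.16 ± 0.16), and RSRP1 averaged 56 CPM in TEPA+hypoxia and 25 CPM in control (1.16 ± 0.11), again with no test. CLK2 averaged 41.8 ± 3.05 CPM in TEPA+hypoxia and 30.8 ± 0.302 CPM in control (SD, n = 3 each), a log2 fold change of 0.44 ± 0.10 at an adjusted p of 0.128 by edgeR. CLK4 averaged 10.5 ± 0.75 CPM in TEPA+hypoxia and 7.87 ± 0.464 CPM in control (0.42 ± 0.15, adjusted p = 0.354), and CLK3 had -0.22 ± 0.49 (adjusted p = 0.921). None of the 3 passed, where 0.263% of all genes were called. Without hypoxia 2 and 3, libraries that are in neither group but enter the shared estimate of the spread, the common dispersion was 0.00846 in place of 0.0339 and 5.5% of all genes were called. In that fit CLK2 (0.45, adjusted p = 0.0181) and CLK4 (0.43, adjusted p = 0.0469) were called higher. DESeq2 on all libraries called CLK2 (0.43, adjusted p = 0.00653) and not CLK4 (adjusted p = 0.209).

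The kinases most related to the CLK family, among them the SRPK kinases that also phosphorylate SR proteins and the DYRK and HIPK kinases of the same branch of the kinome, mostly fell at low oxygen without TEPA. Of 13 listed, 10 were tested, and in hypoxia against control 1 rose and 8 fell, with a median log2 fold change of -0.98. Over all genes 29.4% rose and 27.8% fell, with a median of -0.01. With the GC and length correction 0 of the kinases rose and 5 fell. DYRK1A had -1.96 ± 0.50 (adjusted p = 0.00882), HIPK2 -1.34 ± 0.29 (adjusted p = 0.00601), HIPK1 -1.28 ± 0.29 (adjusted p = 0.00634), HIPK3 -0.98 ± 0.25 (adjusted p = 0.00871) and DYRK2 -0.83 ± 0.16 (adjusted p = 0.00601), all by edgeR. DYRK1A was counted 4 to 217 times per library (0.294 to 12 CPM), so its lowest values lay near the floor of 3 counts. The gene that rose was DYRK1B (0.73, adjusted p = 0.0186), named after its value was seen. Without hypoxia 2 and 3, 0 of the 10 were called in either direction and the median was -0.5. In TEPA+hypoxia against TEPA 0 of the 10 were called in either direction, and all 10 had values above 0 with a median of 0.10.

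Among the SR proteins, the substrates of CLK kinases, 13 of 14 were tested and 2 rose while 7 fell in hypoxia against control (29.4% and 27.8% of all genes), with a median of -0.27. This balance turned round with the GC and length correction, to 7 higher and 1 lower. The 2 that rose were SRSF9 (0.56 ± 0.13, adjusted p = 0.00689) and SRSF7 (0.35 ± 0.09, adjusted p = 0.00878), and SRSF11 (-0.97 ± 0.25, adjusted p = 0.00905) and SRSF5 (-0.33 ± 0.11, adjusted p = 0.0248) were among those that fell. Of 28 other genes with an RS domain or a place in nuclear speckles, 27 were tested, 3 rose and 15 fell, with a median of -0.40, beside the same 29.4% and 27.8% of all genes. With the GC and length correction the balance was 10 higher and 8 lower. SON, a large speckle scaffold protein, had -2.24 ± 0.43 (adjusted p = 0.00601) and NKTR -1.18 ± 0.26 (adjusted p = 0.00614), while CLASRP, a protein that binds CLK4 in mice, had 0.70 ± 0.15 (adjusted p = 0.00618). SNRNP70 (1.11, adjusted p = 0.00625) and LUC7L (0.74, adjusted p = 0.0137), named after their values were seen, were the other two that rose. Without hypoxia 2 and 3, 0 genes of either list were called, with medians of -0.05 for SR proteins and -0.1 for the speckle genes.

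In TEPA+hypoxia against TEPA, 0 SR proteins and 0 speckle genes were called by edgeR, with medians of 0.04 and 0.15 where all genes had 0. At an unadjusted p under 0.05 stood SRSF1 (0.22 ± 0.10, adjusted p = 0.618), LUC7L3 (0.45 ± 0.11, adjusted p = 0.237), ZRANB2 (0.39 ± 0.16, adjusted p = 0.562) and U2AF1 (-1.20 ± 0.37, adjusted p = 0.382) among the genes named. SRSF9 had -0.24 ± 0.13 and SRSF5 -0.17 ± 0.11. DESeq2 called 1 of the speckle genes, and so did edgeR without hypoxia 2 and 3, where it was LUC7L3, related to a component of the U1 snRNP of yeast (0.47, adjusted p = 0.00539). CLK1 at 1.35 and RSRP1 at 1.20 lay above every gene of the 3 lists in this contrast. They were chosen for rising in it and the list genes were not, so nothing is drawn from that order.

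**Figure D4:**
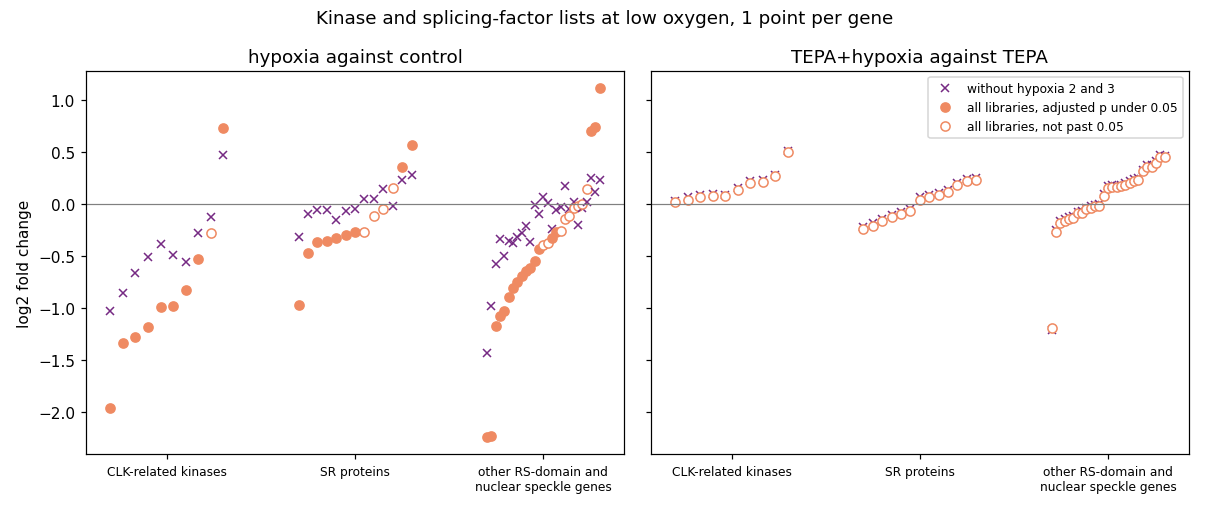
Log2 fold change (vertical axis) of each tested gene of the 3 lists at low oxygen without TEPA (left) and with TEPA (right); filled circles passed an adjusted p of 0.05 with all libraries, open circles did not, and crosses are the same genes without hypoxia 2 and 3. Without TEPA the medians are -0.98, -0.27 and -0.40, and the crosses lie nearer 0 at -0.5, -0.05 and -0.1; with TEPA they are 0.10, 0.04 and 0.15.

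Likeness of pattern was described by Pearson r of log2 CPM among 10120 genes with a mean of at least 5 CPM; the points are libraries of shared groups and share their scaling. Over 12 libraries CLK1 was most like POLG2 (0.93), RSRP1 (0.915), LOC100419798 (0.915), HNRNPU-AS1 (0.914) and LOC105375464 (0.909). POLG2, the accessory subunit of the mitochondrial DNA polymerase, averaged 25.5 CPM in TEPA+hypoxia, 18.8 CPM in hypoxia, 17 CPM in TEPA and 16.9 CPM in control. Over the 10 libraries without hypoxia 2 and 3 the genes most like CLK1 were KDM3A (0.986), NABP1 (0.98), DARS (0.978), THNSL1 (0.975) and OMA1 (0.971). KDM3A, a histone demethylase known as a HIF target, averaged 100 CPM in TEPA+hypoxia, 51.2 CPM in hypoxia, 56.4 CPM in TEPA and 58.1 CPM in control, with hypoxia 1 at 78.6 CPM. No gene was in both of these lists of 5 for CLK1. By Spearman rho over 12 libraries the first 5 were BNIP3L, ST5, UBE2V2, CSTF3 and ZNF337, none of them in either list. The genes most like CLK1 thus turn with the measure and the libraries used.

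RSRP1 over 12 libraries was most like LOC105370496 (0.965), PPID (0.955), TSC22D3 (0.948), SLC2A1 (0.941) and OMA1 (0.94). SLC2A1, the glucose transporter GLUT1 and a known HIF target, averaged 114 CPM in TEPA+hypoxia, 116 CPM in hypoxia, 71.5 CPM in TEPA and 68 CPM in control. Over 10 libraries the genes were LOC105370496 (0.984), ENO2 (0.982), DDIT4 (0.975), OMA1 (0.971) and SIRPB2 (0.966). ENO2, a glycolytic enolase, averaged 21.5 CPM in TEPA+hypoxia, 23.8 CPM in hypoxia, 11.6 CPM in TEPA and 11.6 CPM in control. CLK1 and RSRP1 had an r of 0.915 with each other over 12 libraries and 0.946 over 10, and a Spearman rho of 0.853 and 0.745. By rho RSRP1 was number 15 among 10120 genes in likeness to CLK1 over 12 libraries, and number 303 over 10. Both were chosen for high counts in TEPA+hypoxia, so their likeness across these groups follows in part from that choice. CLK4 had 0.807 with CLK1 over 12 libraries and 0.898 over 10, and CLK2 had 0.771 and 0.773.

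Some counts could be shared with other genes, since the sources used here do not say how reads over shared exons, or on which strand, were counted. RSRP1 exons share 297 bases (4.37% of its exon length) with TMEM50A on the opposite strand, which had 19121 counts in total, 47 bases with RHD, which had 0 counts, and 426 bases (6.26%) on its own strand with the pseudogene AL928711.1, not analysed here. CLK3 exons share 701 bases (3.43%) with EDC3 on the opposite strand, which had 8370 counts in total against at most 27 for CLK3 in a library. CLK4 exons share 161 bases with the small RNA gene RN7SKP70. The CLK2 pseudogene CLK2P1 had 4 counts over all libraries, and CLK3P1 and CLK3P2 had 0.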

How the data were processed

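The deposited table holds raw counts per gene symbol for 12 libraries (TEPA+hypoxia, hypoxia, TEPA and control, 3 each), with no normalization by the authors. Poly(A) RNA was selected and a directional kit used, per the labels' protocols. The submitters' processing notes name HISAT2 2.1.0, GRCh38 and DESeq; which read counter, annotation and strandedness were used is not given in the sources used here.

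Software was R 4.3.3, edgeR 4.0.16, limma 3.58.1 and DESeq2 1.42.0. Genes were filtered with filterByExpr by group (14447 kept, 99.9% of counts), scaled by TMM, and fitted over all 12 libraries with 1 mean per group. Two-sided quasi-likelihood F-tests were Benjamini-Hochberg adjusted over all genes, at a threshold of 0.05. The code was tested on simulated data. CPM per kb used merged GENCODE 29 exons. Log2 CPM used a prior count of 2.

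The 24 alternatives were other scalings (RLE, upper quartile, totals alone), no filter or at least 1 CPM in 3 libraries, the DESeq2 Wald test, limma-voom, a block for the replicate number, the 2 compared groups alone, each library left out, both hypoxia 2 and 3 left out, and a GC and length correction (splines with 4 degrees of freedom, 90.1% of genes) with and without the block. The genes named were all 5 members, up to 3 genes per list with the smallest p at low oxygen without and with TEPA, the 5 genes most like CLK1 and RSRP1, and overlapping genes. The members and lists were chosen with earlier results of these data known. Floors of 3 counts cover counting error only.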

Additional observations from a re-analysis of the deposited data

How the results depend on the processing

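Of 709 recomputed fold changes of the 5 genes, 647 kept their direction and side of the threshold, or moved by less than the spread. These include fits without a library of a group that was not compared, which can hardly move a fold change. The count of 647 therefore overstates how stable the values are. In hypoxia against control, CLK1 missed the threshold with upper quartile scaling (0.41, adjusted p = 0.0524), library totals alone (0.23), no filter (0.39, adjusted p = 0.0939), the 2 groups alone (0.44, adjusted p = 0.108) and without hypoxia 2 and 3 (0.69). With 1 library left out CLK1 ran from 0.27 to 0.53 and RSRP1 from 0.71 to 0.88; RSRP1 missed with the 2 groups alone (0.83). The count of 2 genes called was 0 with the 2 groups alone, 1 in the other settings just named, 3 with the GC and length correction, and 1 to 2 with 1 library left out. Values that turned sign were CLK2 (-0.01) and CLK4 (-0.10) with library totals alone and CLK3 (-1.27) without hypoxia 2 and 3, and CLK3 ran from -0.24 to 0.79 with 1 library left out. In TEPA+hypoxia against hypoxia, CLK4 turned to -0.34 with the GC and length correction and -0.33 with the block added, and CLK3 to 1.06 without hypoxia 2 and 3 (-0.94 to 0.02 with 1 library left out). There the count of 0 genes called was 1 with upper quartile scaling, 2 with totals alone, 2 with the correction, 1 with correction and block, and 0 to 2 with 1 library left out. In TEPA+hypoxia against control, 0 became 1 with DESeq2, 1 with the 2 groups alone, 1 with the correction, 2 without hypoxia 2 and 3, and 0 to 1 with 1 library left out. CLK3 ran there from -0.45 to 0.28, and in TEPA against control from -0.61 to 0.13, with 1 library left out.

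Same-numbered libraries did not pair: over 18 pairs their deviations correlated at -0.36 to 0.319, and 3 of 12 libraries were closest to their own number. With the replicate block CLK1 in hypoxia against control was 0.44 (adjusted p = 0.0535), RSRP1 0.83 (adjusted p = 0.0125), and 1 gene of the 5 was called.

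For the lists in hypoxia against control, both the 2 groups alone and the fit without hypoxia 2 and 3 gave 0 higher and 0 lower in all 3. With the correction, with and without the block, related kinases had 0 higher and 5 lower, SR proteins 7 higher and 1 lower, and speckle genes 10 higher and 8 lower. Totals alone gave 0 kinases and 1 SR protein higher, and no filter 1 SR protein higher. With 1 library left out, kinases ran from 0 to 1 higher and 8 to 9 lower, SR proteins 2 to 3 higher and 1 to 9 lower, and speckle genes 2 to 3 higher and 9 to 19 lower. In TEPA+hypoxia against TEPA, speckle genes higher were 1 with DESeq2, 3 with the 2 groups alone, 1 without hypoxia 2 and 3, and 0 to 1 with 1 library left out.

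As raw counts with no length, the CLK1 share was 60.4% in TEPA+hypoxia (55.1% per kb), 51.6% in hypoxia (46.3%), 42.5% in TEPA (37%) and 47.6% in control (42.5%). Genes called in all ranged from 0 to 10516 around 8270 in hypoxia against control, 0 to 8 around 0 in TEPA against control, 2363 to 10756 around 8887 in TEPA+hypoxia against hypoxia, 3 to 795 around 38 in TEPA+hypoxia against control, and 0 to 362 around 14 in TEPA+hypoxia against TEPA. Where a fit left 1 hypoxia library, it was assumed to vary like the other groups. Depth limits CLK3, with at most 27 counts in a library. Cause was not tested for any of these changes.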
